A study of Mus musculus with 6 samples.

Results

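Scavenger and endocytic receptors are the surface proteins through which macrophages and osteoclasts take up lipoproteins, haemoglobin, bacteria and matrix fragments. The transcripts of 10 genes grouped under that name, *Cubn*, *Lrp1*, *Msr1*, *Marco*, *Colec12*, *Scarb1*, *Cd68*, *Stab1*, *Cd163* and *Adgre1*, are described here out of 23204 genes counted in mouse osteoclast cultures. The group includes *Cd68*, which encodes an endosome and lysosome protein, and *Adgre1*, which encodes an adhesion receptor. The 10 genes were chosen by name with the CPM (counts scaled to a common library size) of the 2 genotypes in view, so the genotype difference of each gene is given as a description and supports nothing further. All 10 were found in the table by symbol, and all 10 passed the filter on low counts.

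The series compared osteoclasts labelled Tet2Rank–/–; Tet3aRank+/– (3 libraries) with wild-type osteoclasts (3 libraries), all from C57BL/6 mice, to follow what deletion of TET enzymes, which oxidise methylated cytosine, does to osteoclasts. The first genotype is Tet2KOTet3Het in the column names, read as *Tet2* deleted and *Tet3* heterozygous; neither the meaning of Rank, the deleted exons nor the age of the mice is spelled out in the sources used here. Osteoclasts, which dissolve bone, form by fusion of cells of the monocyte lineage. In every group, adherent bone marrow cells kept for 2 days in the growth factor M-CSF were cultured on with M-CSF and RANKL, the cytokine that induces osteoclasts, so each library can hold osteoclasts together with macrophage precursors. Each genotype had 1 female and 2 male samples per the labels, but the columns carry no sex or replicate number, and nothing says that the samples came from separate animals or cultures. P-values therefore measure only the spread between these libraries.

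Each library is called here by the first number of its column: libraries 2, 3 and 5 are labelled mutant and libraries 1, 4 and 6 wild type. Total counts lay between 8794973 and 14267135 per library. *Tet2* itself had 58.2, 45.5 and 52.3 CPM in libraries 2, 3 and 5, against 71.7, 80.9 and 79.3 CPM in libraries 1, 4 and 6. *Tet3* had 163, 141 and 156 CPM in libraries 2, 3 and 5, against 145, 121 and 127 CPM in wild-type libraries, so it was not lower; the genotype is therefore written as labelled. The column names of libraries 5 and 6 carry a second number, and these libraries stood apart from the rest. This split is called the naming batch, and it holds both genotypes on each side. Every osteoclast and macrophage marker listed was detected. The summed level of 10 osteoclast markers was between 2966 and 12373 CPM in libraries labelled mutant, against 15143 to 39699 CPM in wild-type libraries. That of 12 macrophage markers was between 21326 and 27479 CPM in libraries labelled mutant, against 11013 to 19232 CPM in wild-type libraries. Neither pair of ranges overlapped, and the part of these markers in the receptor values below was not tested. Most of the macrophage sum was *Lyz2*, at 20108, 14263 and 14023 CPM in libraries 2, 3 and 5, against 13758, 10177 and 6623.5 CPM in libraries 1, 4 and 6. Singly, *Csf1r*, *Fcgr1*, *Itgam* and *Cd14* overlapped and 8 macrophage markers were higher without overlap, beside 9.91% of all genes. *Dcstamp*, *Calcr* and *Itgb3* overlapped and 7 osteoclast markers were lower without overlap, beside 16.9%. Of the other cell types listed, the 8 lymphocyte markers summed to 14.6 to 18.2 CPM in libraries labelled mutant, against 6.49 to 8.59 CPM in wild type, without overlap. Only 3 of the 8 passed the filter on low counts, and *Cd79b* was the only marker of this list without overlap. *Cd79b* had 12.3, 9.07 and 9.45 CPM in libraries 2, 3 and 5, against 3.50, 6.50 and 3.13 CPM in libraries 1, 4 and 6. The 9 neutrophil markers summed higher in libraries labelled mutant on each side of the naming batch. The sums were 437 and 536 CPM in libraries 2 and 3 against 285 and 251 CPM in libraries 1 and 4. In library 5 the sum was 1358 CPM, against 894 CPM in library 6. Singly, *Mpo*, *Elane* and *Retnlg* were each lower in library 2 than in library 1. All 9 neutrophil markers had a fitted log2 fold change above 0, beside 46.8% of all genes tested. At an adjusted p of 0.05 in edgeR with genotype alone, 0 of 9 passed, beside 0.0499% of all genes higher and 0.0214% lower. Once the naming batch was fitted, 4 of 9 were called higher, beside 3.08% of all genes. Of the 10 osteoclast markers, 0 had a log2 fold change above 0, and of the 12 macrophage markers 11 did. With genotype alone, 0 of either list passed in edgeR. With the naming batch fitted, 7 osteoclast markers were called lower, beside 5.60% of all genes, and 7 macrophage markers higher, beside 3.08%. Sums of stromal, dendritic, and erythroid and mast cell markers overlapped between the genotypes. In bulk RNA, fewer cells of a type and less RNA per cell cannot be told apart.

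Receptors of this kind bind their ligand at the surface, are gathered into clathrin-coated pits, release the ligand in acidified endosomes and return to the membrane, while the ligand goes on to lysosomes. Cubilin, the product of *Cubn*, has no membrane-spanning part and is held at the surface by amnionless. It is best known from the ileum, where it takes up vitamin B12 bound to intrinsic factor, and from the kidney tubule, where with the LDL receptor relative megalin it recovers albumin, transferrin and other filtered proteins. The class A scavenger receptors (*Msr1*, *Marco*, *Colec12*) bind modified lipoproteins and microbes through collagen-like and cysteine-rich or lectin domains, and several receptors of the group are standard macrophage markers.

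Across the 10 genes, *Cubn* was the lowest relative to wild type, *Stab1* and *Adgre1* were the highest, and the other 7 overlapped between the genotypes. Fitted log2 fold changes (mutant over wild type, edgeR) ran between -2.95 for *Cubn* and 1.35 for *Stab1*, 7 of 10 were above 0, and the median was 0.44, beside 46.8% above 0 and a median of -0.03 over the 14040 genes tested. Libraries of the genotypes did not overlap for 2 genes that were higher, where the share over all genes tested was 9.91%, and for 1 that was lower, where it was 16.9%. None of the 10 passed an adjusted p of 0.05 in edgeR (0 higher and 0 lower), where the background was 0.0499% of genes higher and 0.0214% lower. At an unadjusted p of 0.05, 2 were higher (background 7.19%) and 1 was lower (background 12.4%). Once the naming batch was added to the fit, *Stab1* was called higher (1 of 10, background 3.08%) and *Cubn* lower (1 of 10, background 5.60%). DESeq2 called *Stab1* and *Adgre1* higher (2 of 10, background 5.58%) and *Cubn* lower (1 of 10, background 6.44%). Because this contrast chose the genes, nothing is read from these counts.

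**Figure D1:**
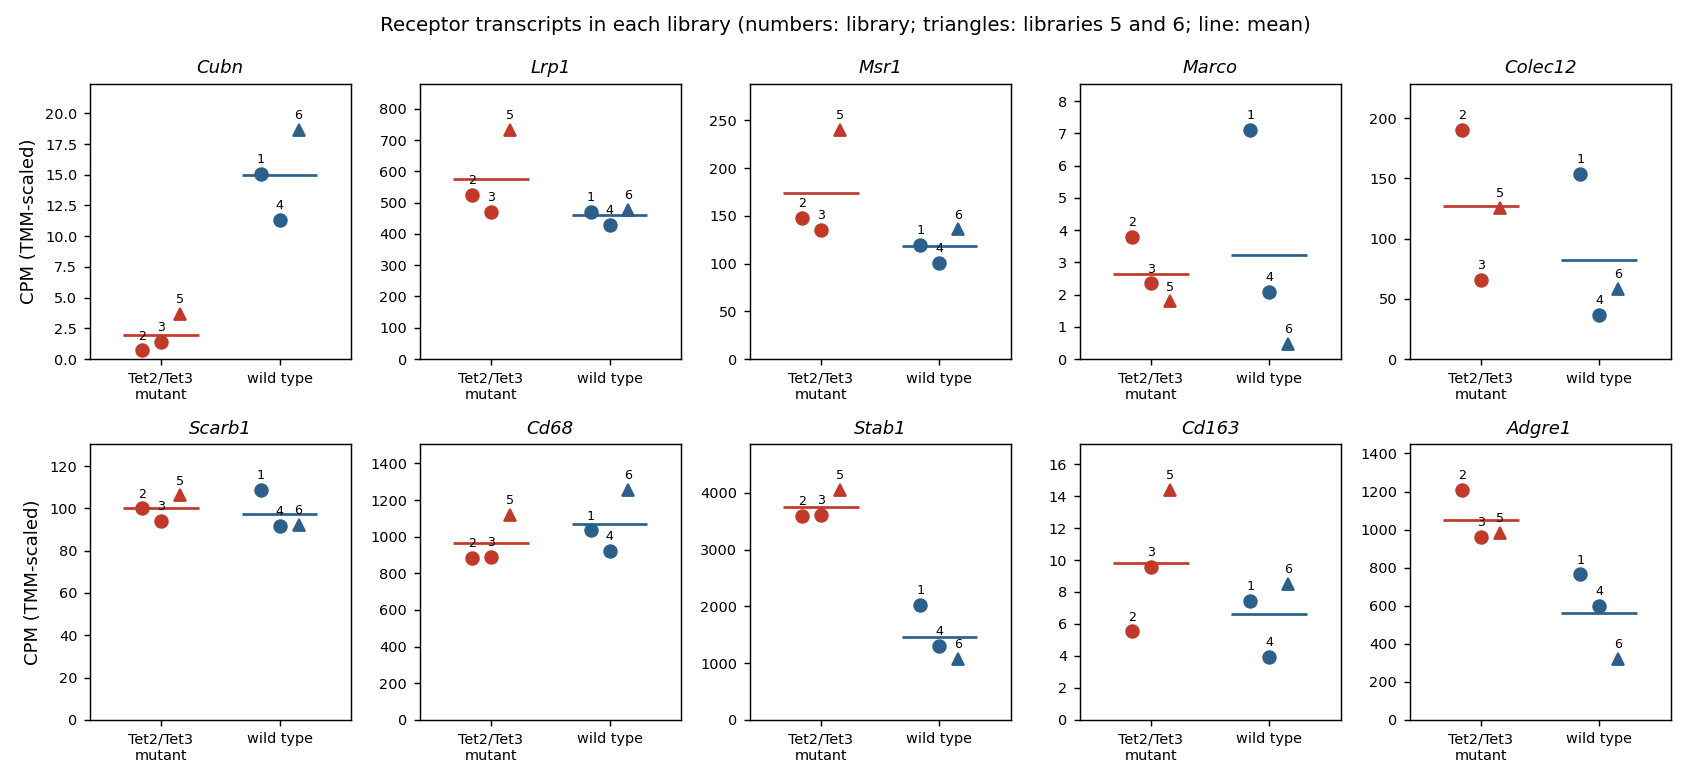
Level of each receptor transcript (y axis, TMM-scaled CPM, each panel from 0) in the 3 libraries labelled mutant (left, red) and the 3 wild-type libraries (right, blue). Points are libraries with their numbers, triangles are libraries 5 and 6, and lines are means. *Cubn* lies lower in every library labelled mutant, and *Stab1* and *Adgre1* lie higher in every one.

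*Cubn* (ENSMUSG00000026726, chromosome 2, 13276338 to 13491813, minus strand, mm10) gave 10, 14 and 49 reads in libraries 2, 3 and 5, against 129, 146 and 233 reads in libraries 1, 4 and 6. In CPM these were 0.700, 1.43 and 3.65 in the libraries labelled mutant, against 15.05, 11.3 and 18.7 in wild type. The genotypes did not overlap: library 5 was the highest of its genotype and still stood below library 4, the lowest wild-type library. The exact Poisson 95% interval, which covers counting error only, was 2.70 to 4.82 CPM for library 5 and 9.55 to 13.3 CPM for library 4. The mean was 1.92 CPM ± 1.54 (SD, n = 3) in libraries labelled mutant, or 12.8% of the 15.01 CPM ± 3.69 (SD, n = 3) in wild type. The log2 fold change was -2.95 (SE 0.613), a value that 0.057% of genes tested reached or went below. Among all genes tested, 0.406% had a log2 fold change of -2 or lower. Within the naming batches, the log2 ratio was -3.63 for libraries 2 and 3 over 1 and 4, and -2.36 for library 5 over library 6. Without library 5 the log2 fold change was -3.84. An opposite-strand gene, *Gm13270*, shares 368 bases with exons of *Cubn* and had 7, 7 and 7 reads in libraries 2, 3 and 5, against 8, 4 and 9 in libraries 1, 4 and 6.

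The genes on either side of *Cubn*, picked by position alone, overlapped between the genotypes. *Rsu1*, whose nearest end lies 4923 bases away, stood at 116 ± 5.71 CPM in libraries labelled mutant and 110 ± 7.65 CPM in wild type (SD, n = 3 each). *Trdmt1*, a tRNA methyltransferase gene 17201 bases away, stood at 9.30 ± 1.76 CPM in libraries labelled mutant and 12.4 ± 2.17 CPM in wild type (SD, n = 3 each).

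The partners that carry cubilin in epithelia were scarce here. *Amn*, which encodes amnionless, gave 4, 8 and 1 reads in libraries 2, 3 and 5, against 1, 0 and 0 reads in libraries 1, 4 and 6. *Lrp2*, which encodes megalin, gave 11, 6 and 0 reads in libraries 2, 3 and 5, against 14, 18 and 1 reads in wild type, and neither gene passed the filter on low counts. Of 10 kidney and gut epithelial markers listed, 7 were in the table. Their summed level was 24.1 to 76.0 CPM in libraries labelled mutant and 18.8 to 78.7 CPM in wild type, ranges that overlap. The markers of this list did not move as one: in wild type *Epcam* had 25.4, 61.5 and 4.81 CPM in libraries 1, 4 and 6, while *Aqp1* had 5.72, 5.50 and 13.3 CPM, highest in library 6 as *Cubn* was. The part of such cells in the values of *Cubn* was not tested. *Slc5a2*, the glucose transporter gene of the proximal tubule, had 0 reads in libraries 2, 3 and 5, against 0, 0 and 3 reads in libraries 1, 4 and 6.

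Since the series is about DNA methylation, the bases upstream of the start sites of the genes that stand apart in opposite directions are shown, with those of *Cd68*, an abundant receptor gene that overlaps between the genotypes. Each is the 250 bases before the start site from RefSeq (GRCm38.p6, the same build as mm10), 5′ to 3′ on the gene's strand, with CpG dinucleotides in capitals. All 3 lie on the minus strand.
*Cubn*, chr2:13491877-13492126: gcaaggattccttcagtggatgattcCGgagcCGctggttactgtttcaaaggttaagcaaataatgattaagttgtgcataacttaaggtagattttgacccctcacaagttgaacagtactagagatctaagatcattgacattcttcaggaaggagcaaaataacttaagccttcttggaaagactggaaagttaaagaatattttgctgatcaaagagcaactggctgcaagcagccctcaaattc
*Stab1*, chr14:31168642-31168891: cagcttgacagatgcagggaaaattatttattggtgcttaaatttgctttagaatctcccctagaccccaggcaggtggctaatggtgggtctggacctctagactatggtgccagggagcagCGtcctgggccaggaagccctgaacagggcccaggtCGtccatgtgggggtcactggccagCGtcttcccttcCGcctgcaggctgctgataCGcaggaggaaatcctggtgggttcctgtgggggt
*Cd68*, chr11:69666171-69666420: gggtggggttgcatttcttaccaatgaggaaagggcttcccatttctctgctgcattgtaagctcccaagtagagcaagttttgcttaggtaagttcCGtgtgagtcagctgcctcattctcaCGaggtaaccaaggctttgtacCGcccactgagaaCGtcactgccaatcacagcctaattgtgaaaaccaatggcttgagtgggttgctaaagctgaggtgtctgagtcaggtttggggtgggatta

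Of the 10 genes, 6 had an entry in the RefSeq promoter table, and 5 of these had fewer CpGs than the median promoter. *Marco* and *Cd163* had 0 CpGs in the 250 bases, a count shared by 8.26% of 27025 promoters. *Cubn* had 2, *Cd68* had 4 and *Stab1* had 5, against a median of 6 over all promoters (quartiles 2 and 16). *Lrp1*, at 13, was above the median. GC content was 39.6% for *Cubn*, 57.2% for *Stab1* and 49.2% for *Cd68*, around a median of 52.0%. Methylation of these bases was not analysed here. The MAF factor motif, TGCTGA on either strand, was in the windows of *Cubn* and *Stab1*, starting 42 and 43 bases before the start site, and in 15.8% of all promoters. The AP-1 motif TGACTCA was in the *Cd68* window at 149 and 24 bases before the start site, read on the other strand, and in 4.43% of all promoters. The PU.1 core GGAAGT, the nuclear receptor motif AGGTCA and the TATA box TATAAA were in 0 of the 6 windows, and in 20%, 13.8% and 13% of all promoters, each searched on both strands. A match is a description of letters only.

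*Lrp1*, the gene of the large LDL receptor relative that clears apolipoprotein E remnants and alpha-2-macroglobulin (ENSMUSG00000040249, chromosome 10, 127538161 to 127621148), had 525, 471 and 734 CPM in libraries 2, 3 and 5, against 472, 428 and 477 CPM in libraries 1, 4 and 6. Library 5 stood far above the rest, and library 3 stood below libraries 1 and 6. Its log2 fold change was 0.33 (SE 0.189), and it was 0.11 without library 5. *Lrp1* averaged 577 CPM ± 139 in libraries labelled mutant and 459 CPM ± 26.7 in wild type (SD, n = 3 each).

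Among the class A scavenger receptors, *Msr1* had the highest mean CPM in both genotypes, although *Colec12* was above it in libraries 1 and 2. *Msr1* (ENSMUSG00000025044, chromosome 8, 39581685 to 39642673), which encodes the trimeric receptor for oxidised and acetylated LDL, had 148, 135 and 240 CPM in libraries 2, 3 and 5, against 120, 100.3 and 136 CPM in libraries 1, 4 and 6. Library 5 was again the highest, and library 3 stood just below library 6. Its log2 fold change was 0.55 (SE 0.248), and 0.25 without library 5. *Colec12* (ENSMUSG00000036103, chromosome 18, 9707595 to 9882644), which encodes a collagen-like receptor with a lectin domain, had 190, 65.8 and 126 CPM in libraries 2, 3 and 5, against 153, 36.3 and 57.9 CPM in libraries 1, 4 and 6. The 3 libraries of a genotype lay far apart: the coefficient of variation was 49.0% in libraries labelled mutant and 75.5% in wild type. Fitted over all 6 libraries, the log2 fold change was 0.63 (SE 0.602), 1.43 without library 1 and 0.26 without library 2.

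*Marco* (ENSMUSG00000026390, chromosome 1, 120474538 to 120505024), which encodes a bacterial and particle receptor of tissue macrophages, was counted in few reads. It had 54, 23 and 24 reads in libraries 2, 3 and 5, against 61, 27 and 6 reads in libraries 1, 4 and 6. In CPM these were 3.78, 2.34 and 1.79 in the libraries labelled mutant, against 7.12, 2.09 and 0.481 in wild type. The wild-type libraries held both the highest and the lowest value. The log2 fold change of -0.28 (SE 0.901) had no fixed sign: it was 1.03 without library 1 and 0.10 in the fit with the naming batch. Library 5 over library 6 gave 1.89, and libraries 2 and 3 over 1 and 4 gave -0.59.

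The HDL receptor and the lysosomal receptor varied little, with coefficients of variation between 5.99% and 15.7% in either genotype. *Scarb1* (ENSMUSG00000037936, chromosome 5, 125277087 to 125341094), which encodes the HDL receptor SR-BI, had 99.99, 94.1 and 106 CPM in libraries 2, 3 and 5, against 109, 91.8 and 92.1 CPM in libraries 1, 4 and 6. Its log2 fold change was 0.04 (SE 0.110), and the sign turned without library 5 (-0.01). *Cd68* (ENSMUSG00000018774, chromosome 11, 69664213 to 69666153), which encodes a heavily glycosylated endosome and lysosome protein of the LAMP family, had 886, 892 and 1119 CPM in libraries 2, 3 and 5, against 1034, 924 and 1253 CPM in libraries 1, 4 and 6. The log2 fold change was -0.15 (SE 0.177). The interval of 2 SE on either side spans 0 for both genes, which does not show that their levels were equal.

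*Stab1* (ENSMUSG00000042286, chromosome 14, 31139013 to 31168641) encodes stabilin-1, which takes up acetylated LDL and the matrix protein SPARC in macrophages and sinusoidal endothelium. It had 3587, 3609 and 4043 CPM in libraries 2, 3 and 5, against 2023, 1306 and 1073 CPM in libraries 1, 4 and 6. The genotypes did not overlap, and the libraries labelled mutant lay close together, with a coefficient of variation of 6.87% against 33.8% in wild type. The mean was 3747 CPM ± 257 (SD, n = 3) in libraries labelled mutant, or 255% of the 1467 CPM ± 495 (SD, n = 3) in wild type. Its log2 fold change was 1.35 (SE 0.257), with 1.11 for libraries 2 and 3 over 1 and 4, and 1.91 for library 5 over 6. Of all genes tested, 3.33% had a log2 fold change of 1 or higher. The neighbouring genes *Nisch* and *Smim4*, taken by position, overlapped between the genotypes. *Stab1* alone gave 53.9%, 57.8% and 54.9% of the reads of the 10 receptor genes in libraries 2, 3 and 5, against 43.0%, 37.3% and 31.2% in libraries 1, 4 and 6. The opposite-strand gene *Nt5dc2* shares 112 bases with its exons and had 757, 497 and 648 reads in libraries 2, 3 and 5, against 275, 783 and 292 in wild type. Its relative *Stab2*, a receptor of sinusoidal endothelium named after its values were seen, had 20.8, 18.9 and 21.1 CPM in libraries 2, 3 and 5, against 9.80, 9.60 and 7.05 CPM in libraries 1, 4 and 6. Of the 9 endothelial markers tested, *Stab2* included, 7 were above 0, beside 46.8% of all genes, with a median log2 fold change of 0.57. In edgeR 0 passed, with 1 higher and 0 lower at an unadjusted p of 0.05, beside 7.19% and 12.4% of all genes. The 10 endothelial markers summed to 66.8 to 127 CPM in libraries labelled mutant against 32.9 to 94.5 CPM in wild type, ranges that overlap, and their part in the values of *Stab1* was not tested.

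*Adgre1* (ENSMUSG00000004730, chromosome 17, 57358691 to 57483527) encodes F4/80, an adhesion G protein-coupled receptor used to identify mouse macrophages. It had 1206.5, 963 and 983 CPM in libraries 2, 3 and 5, against 764, 599.7 and 320 CPM in libraries 1, 4 and 6. As for *Stab1*, library 6 was the lowest and library 1 the highest of the wild-type libraries, and the genotypes did not overlap. Its log2 fold change was 0.90 (SE 0.318), with 0.67 for libraries 2 and 3 over 1 and 4, and 1.62 for library 5 over 6. Library 6, the lowest wild-type library for *Adgre1*, was the highest for the summed osteoclast markers, at 39699 CPM against 18416 and 15143 CPM in libraries 1 and 4, and for *Cubn*. Between libraries 1 and 4, all 3 measures were higher in library 1, and whether they are linked was not tested.

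*Cd163* (ENSMUSG00000008845, chromosome 6, 124304656 to 124330527), the gene of the receptor for haemoglobin bound to haptoglobin, had 79, 94 and 193 reads in libraries 2, 3 and 5, against 64, 51 and 106 reads in libraries 1, 4 and 6. In CPM these were 5.53, 9.58 and 14.4 in the libraries labelled mutant, against 7.47, 3.95 and 8.50 in wild type. Library 2 stood below 2 of the wild-type libraries. For *Cd163* the log2 fold change was 0.57 (SE 0.448), and 0.18 without library 5.

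**Figure D2:**
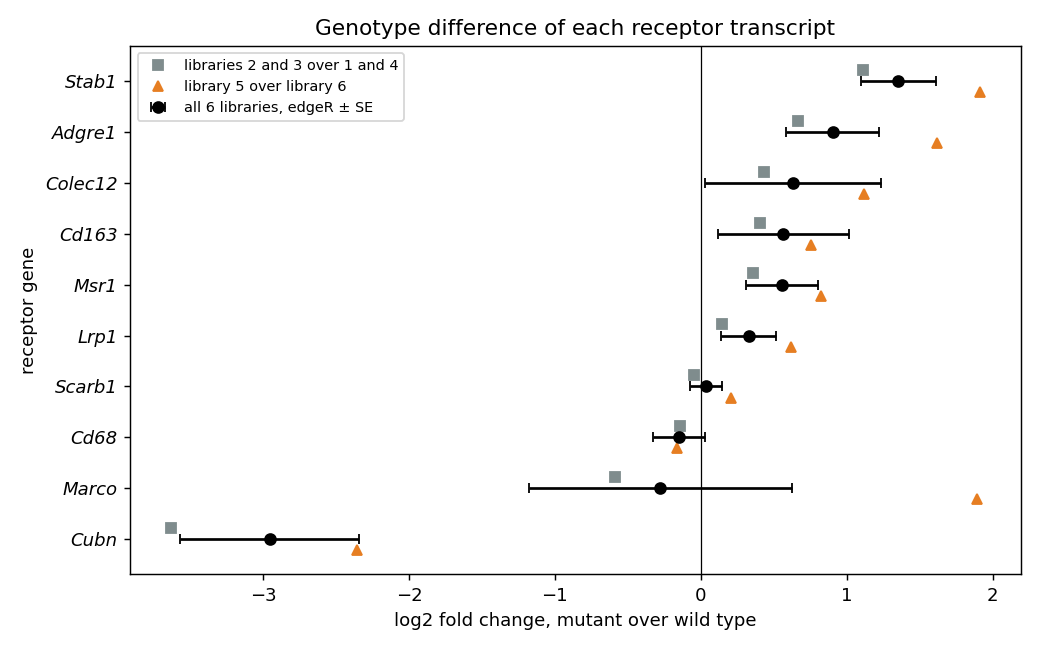
Log2 fold change, mutant over wild type (x axis), of each receptor gene (y axis, sorted): black points with SE bars are the edgeR fit to all 6 libraries, grey squares the ratio of mean CPM of libraries 2 and 3 over 1 and 4, and orange triangles that of library 5 over library 6. *Cubn* lies at -2.95, *Stab1* at 1.35 and *Adgre1* at 0.90, and *Marco* changes side between the naming batches.

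The naming batch and its interaction with genotype, which did not enter the choice of these genes, were tested. With genotype in the fit, 0 of 10 genes differed between the naming batches at an adjusted p of 0.05 in edgeR, beside 2.29% of all genes tested; *Cubn*, *Msr1* and *Cd68* had an unadjusted p under 0.05, beside 23.9% of all genes. The smallest adjusted p was that of *Msr1* (0.0939, edgeR), at a log2 difference of 0.54 (SE 0.147) for libraries 5 and 6 over the rest. *Msr1* passed without library 1 (0.63, edgeR adjusted p = 0.0468), where 6.56% of all genes passed. With no filter on low counts *Msr1*, *Cubn* and *Adgre1* passed, at 0.56, 1.12 and -0.57 (edgeR adjusted p = 0.00548, 0.0215 and 0.0412), where 12.0% of all genes passed. Several marker sums separated by naming batch as well. Neutrophil markers summed to 894 to 1358 CPM in libraries 5 and 6 against 251 to 536 CPM in the rest, and stromal markers to 2712 to 3687 CPM against 874 to 2342 CPM in the rest. *Col1a1*, *Col1a2*, *Col3a1*, *Pdgfrb*, *Alpl* and *Sp7* were higher in libraries 5 and 6 than in every other library. *Dcn* went the other way, at 8.63 and 2.16 CPM against 14.1 to 42.0 CPM, and the other stromal markers did not separate. Dendritic markers summed to 27.5 to 34.3 CPM in libraries 5 and 6 against 14.3 to 19.9 CPM in the rest. *Itgax* had 14.1 and 23.2 CPM in libraries 5 and 6 against 3.64 to 10.0 CPM in the rest. *Flt3* and *Xcr1* were also higher in both, and the other dendritic markers did not separate. The epithelial marker sum was lower in libraries 5 and 6, at 18.8 to 24.1 CPM against 34.995 to 78.7 CPM in the rest. *Epcam* had 2.08 and 4.81 CPM in libraries 5 and 6 against 25.4 to 61.5 CPM in the rest, and *Cdh1* and *Lrp2* were also lower. *Aqp1* leaned the other way, at 21.1 and 13.3 CPM against 5.50 to 14.3 CPM, and the other epithelial markers did not separate. Erythroid and mast cell markers also summed lower in libraries 5 and 6, at 0.802 to 1.49 CPM against 10.965 to 48.6 CPM in the rest. The part of these cells in the batch differences was not tested. The interaction, which asks whether the genotype difference differs between the naming batches, was called for 0 of 10 genes in edgeR and for 0% of all genes, and an unadjusted p under 0.05 was found for 0 of the 10, beside 0.919% of all genes. Its largest estimates were 2.44 for *Marco* (SE 1.37) and 1.30 for *Cubn* (SE 0.742).

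Per length, the 10 transcripts spanned a wide range. Divided by the union of annotated exons, *Cd68* was the highest at 768 CPM per kb ± 106 in libraries labelled mutant and 852 ± 133 in wild type (SD, n = 3 each). *Stab1* followed at 364 ± 25.01 CPM per kb in libraries labelled mutant and 143 ± 48.1 in wild type, and *Adgre1* at 325 ± 41.7 CPM per kb in libraries labelled mutant and 173 ± 69.4 in wild type. *Stab1* and *Adgre1* overlapped in both genotypes and their order is not settled: library 2 had *Stab1* below *Adgre1* and library 6 had it above, against the order of their group means. Per kb of the longest transcript the wild-type means were 183 CPM for *Stab1* and 173 CPM for *Adgre1*, the other order. A second tier held *Lrp1* at 32.5 ± 7.82 CPM per kb in libraries labelled mutant and 25.9 ± 1.51 in wild type, and *Msr1* at 27.5 ± 9.08 CPM per kb in libraries labelled mutant and 18.7 ± 2.79 in wild type. These 2 overlapped in libraries labelled mutant and not in wild type.

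Below them, *Colec12* stood at 14.6 ± 7.14 CPM per kb in libraries labelled mutant and 9.45 ± 7.13 in wild type, and *Scarb1* at 11.8 ± 0.706 in libraries labelled mutant and 11.5 ± 1.13 in wild type (SD, n = 3 each), overlapping in both. *Cd163*, at 1.80 ± 0.810 CPM per kb in libraries labelled mutant and 1.22 ± 0.437 in wild type, overlapped *Marco*, at 1.37 ± 0.535 in libraries labelled mutant and 1.68 ± 1.80 in wild type. *Cubn* was the lowest, at 0.129 ± 0.103 CPM per kb in libraries labelled mutant and 1.01 ± 0.247 in wild type. It overlapped *Cd163* and *Marco* in wild type and stood below both in every library labelled mutant. In percentiles of CPM per kb over 14030 genes, *Cubn* was at 1.13 in libraries labelled mutant and 19.7 in wild type, while *Cd68* was at 99.7 in libraries labelled mutant and 99.8 in wild type.

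**Figure D3:**
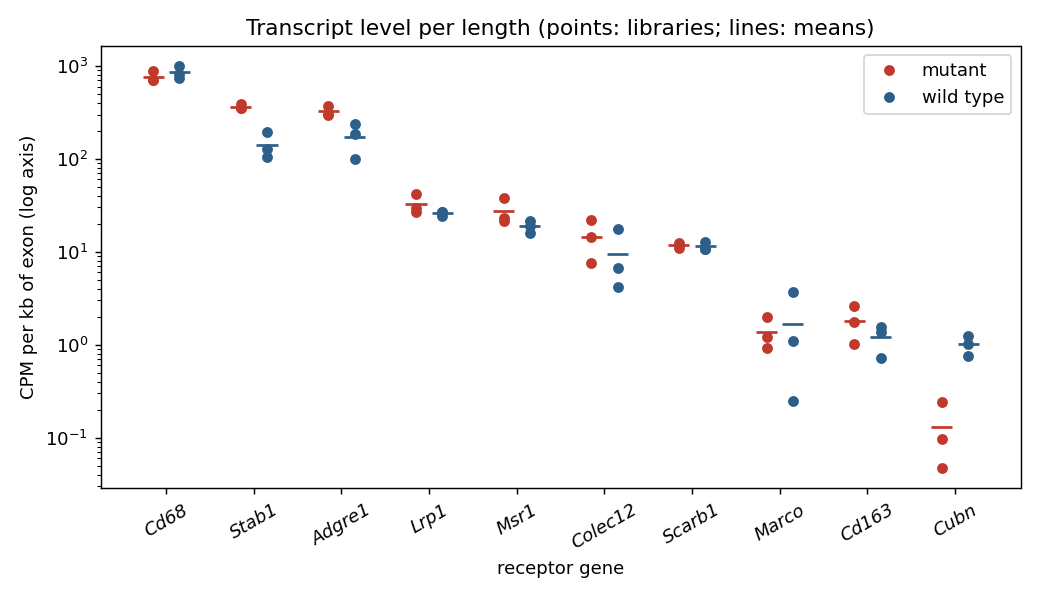
Level per length of the 10 transcripts (y axis, CPM per kb of exon, log axis; x axis, genes in order of their mean), with libraries labelled mutant in red to the left of wild type in blue; points are libraries and short lines are means. *Cd68*, *Stab1* and *Adgre1* lie at or above 98.8 CPM per kb in every library, and *Cubn* in libraries labelled mutant lies below every other point.

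The 5 genes whose log2 CPM over the 6 libraries was most like that of *Cubn* were *Cdc37*, *St7*, *Got2*, *Ndufa12* and *Cadm1*. Their Pearson r was 0.994 to 0.997, the highest among 12702 genes compared. The points are the same 6 libraries in 2 genotypes, and the values are a description. *Cadm1*, an adhesion molecule gene, stood at 71.0 ± 17.6 CPM in libraries labelled mutant and 159 ± 22.7 CPM in wild type, and *Got2*, the mitochondrial aspartate aminotransferase gene, at 89.9 ± 11.3 CPM in libraries labelled mutant and 137.3 ± 3.9998 CPM in wild type (SD, n = 3 each).

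The receptors' wider pathway was described by 11 lists set out by function, with 158 genes tested besides the 10 receptors. Of these, 106 (67.1%) had a log2 fold change above 0 and the median was 0.19, beside 46.8% and -0.03 over all genes tested. In edgeR, 1 was called higher and 0 lower at an adjusted p of 0.05; at an unadjusted p of 0.05, 48 were higher and 14 lower, beside 7.19% and 12.4% of all genes, the shares that apply to the unadjusted counts of each list below. DESeq2 called 42 higher and 8 lower, beside 5.58% and 6.44% of all genes. In the fit with the naming batch, 29 were called higher and 5 lower, beside 3.08% and 5.60% of all genes. The 1 called higher was *Trf*, which encodes the iron carrier transferrin, a cubilin ligand in the kidney. It had 92.4, 94.6 and 113 CPM in libraries 2, 3 and 5, against 30.8, 24.5 and 27.7 CPM in libraries 1, 4 and 6. It rose by 1.86 on the log2 scale (SE 0.135), with an adjusted p of 0.0331 in edgeR, and leaving out any 1 library ended the call.

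Among 16 other scavenger receptors tested, 13 were above 0 (median 0.67) and 0 passed; 6 were higher and 1 lower at an unadjusted p of 0.05 in edgeR. *Mrc1*, the mannose receptor gene, stood at 765 ± 27.2 CPM in libraries labelled mutant and 320 ± 148 CPM in wild type, and *Scarb2*, the gene of the lysosomal protein LIMP-2, at 269 ± 27.0 CPM in libraries labelled mutant and 145 ± 50.3 CPM in wild type (SD, n = 3 each). *Cd36*, a class B receptor gene named after its values were seen, had 220, 203 and 285 CPM in libraries 2, 3 and 5, against 113.5, 80.8 and 93.8 CPM in libraries 1, 4 and 6, with no overlap and an edgeR adjusted p of 0.0589. In the fit with the naming batch, *Cd36*, *Scarb2*, *Stab2*, *Mrc1* and *Cxcl16* passed in edgeR, all higher.

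Of 11 other LDL receptor relatives tested, 6 were above 0 (median 0.09) and 0 passed; 3 were higher and 1 lower at an unadjusted p of 0.05 in edgeR. *Lrp6*, a Wnt co-receptor gene, stood at 267 ± 5.39 CPM in libraries labelled mutant and 182 ± 31.2 CPM in wild type, and *Lrp10* at 171 ± 35.5 CPM in libraries labelled mutant and 251 ± 98.1 CPM in wild type (SD, n = 3 each). In the fit with the naming batch, *Sorl1*, named after its values were seen, was called higher in edgeR.

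Of 8 receptor partners and adaptors tested, 5 were above 0 (median 0.21) and 0 passed; 3 were higher and 0 lower at an unadjusted p of 0.05 in edgeR. *Dab2*, the clathrin adaptor gene that serves cubilin and megalin in the kidney, had 427, 411 and 355.5 CPM in libraries 2, 3 and 5, against 174, 117 and 67.1 CPM in libraries 1, 4 and 6, with no overlap (log2 fold change 1.74, SE 0.336, edgeR adjusted p = 0.0836). Its direction was opposite to that of *Cubn*. *Pid1*, which encodes an adaptor that binds the tail of LRP1, stood at 208 ± 39.4 CPM in libraries labelled mutant and 111 ± 26.6 CPM in wild type (SD, n = 3 each). Both passed in the fit with the naming batch (edgeR adjusted p = 0.0158 and 0.0232).

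Of 14 ligand genes tested, 11 were above 0 (median 0.53), 1 passed (*Trf*, above) and 0 were lower; 5 were higher and 0 lower at an unadjusted p of 0.05 in edgeR. Of 16 genes listed for heme and cobalamin (vitamin B12) handling, 10 were above 0 (median 0.095) and 0 passed. In edgeR 6 were higher and 3 lower at an unadjusted p of 0.05. The 10 include *Hmgb1* (log2 fold change 0.25), a chromatin protein gene rather than one of this handling. The ferritin genes *Ftl1* and *Fth1* stood at 11063 ± 1158 and 8951 ± 1098 CPM in libraries labelled mutant, against 7323 ± 990.4 and 5117 ± 1101 CPM in wild type (SD, n = 3 each). In the fit with the naming batch, the heme oxygenase gene *Hmox1*, the iron exporter gene *Slc40a1* and the heme transporter gene *Slc48a1* were called higher in edgeR. *Mmut*, the gene of the B12-dependent methylmalonyl-CoA mutase, was called lower there, at 53.7 ± 2.06 CPM in libraries labelled mutant and 75.9 ± 11.3 CPM in wild type (SD, n = 3 each).

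Of 24 genes of the clathrin machinery, 19 were above 0 (median 0.31) and 0 passed; 9 were higher and 1 lower at an unadjusted p of 0.05 in edgeR. *Cltc*, the clathrin heavy chain gene, stood at 1045 ± 50.2 CPM in libraries labelled mutant and 779 ± 72.0 CPM in wild type, and *Ap2m1*, an adaptor subunit gene, at 524 ± 37.3 CPM in libraries labelled mutant and 422 ± 18.5 CPM in wild type (SD, n = 3 each). Of 22 genes of endosome sorting and recycling, 13 were above 0 (median 0.06) and 0 passed; 6 were higher and 4 lower at an unadjusted p of 0.05 in edgeR. *Tfrc*, the transferrin receptor gene, stood at 450.3 ± 104 CPM in libraries labelled mutant and 734 ± 163 CPM in wild type without overlap, opposite in direction to *Trf*. *Rab7* stood at 539.9 ± 122 CPM in libraries labelled mutant and 568 ± 122 CPM in wild type (SD, n = 3 each).

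Of 8 genes of lysosomal proteins tested, 5 were above 0 (median 0.14) and 0 passed, with 1 higher and 0 lower at an unadjusted p of 0.05 in edgeR. *Lamp1* stood at 2496 ± 341 CPM in libraries labelled mutant and 1470.2 ± 456 CPM in wild type, and *Npc2* at 1224 ± 173 CPM in libraries labelled mutant and 1634 ± 287 CPM in wild type (SD, n = 3 each). Another list held 11 genes of sheddases, secretases and their regulators, and included those that cut CD163 and LRP1 from the surface. Of these 11, 7 were above 0 (median 0.07), the regulator genes *Timp3* and *Rhbdf2* among them. In edgeR 0 passed, with 1 higher and 0 lower at an unadjusted p of 0.05. *Adam8* stood at 263 ± 22.6 CPM in libraries labelled mutant and 264 ± 63.9 CPM in wild type, and *Adam17* at 261 ± 36.8 CPM in libraries labelled mutant and 202 ± 46.9 CPM in wild type (SD, n = 3 each). Of 11 other adhesion receptors of the *Adgre1* family, 5 were above 0 (median -0.20) and 0 passed, with 0 higher and 2 lower at an unadjusted p of 0.05 in edgeR. *Adgre5* stood at 245 ± 37.1 CPM in libraries labelled mutant and 289 ± 55.2 CPM in wild type, and *Adgrl2* at 50.002 ± 3.69 CPM in libraries labelled mutant and 68.2 ± 9.001 CPM in wild type (SD, n = 3 each).

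Of 17 macrophage transcription factor genes, 12 were above 0 (median 0.43) and 0 passed; 8 were higher and 2 lower at an unadjusted p of 0.05 in edgeR. *Maf*, one of the MAF factor genes of macrophages, had 658, 642 and 556 CPM in libraries 2, 3 and 5, against 380, 268 and 161 CPM in libraries 1, 4 and 6, with no overlap. *Zeb2* stood at 484 ± 42.3 CPM in libraries labelled mutant and 402 ± 90.4 CPM in wild type (SD, n = 3 each). In the fit with the naming batch, 6 of the 17 were called higher, *Maf* among them, and 1 lower, beside 3.08% and 5.60% of all genes. Like *Stab1* and *Adgre1*, *Maf* was lowest in library 6, where the osteoclast markers were highest, and the part of cell make-up in these values was not tested.

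**Figure D4:**
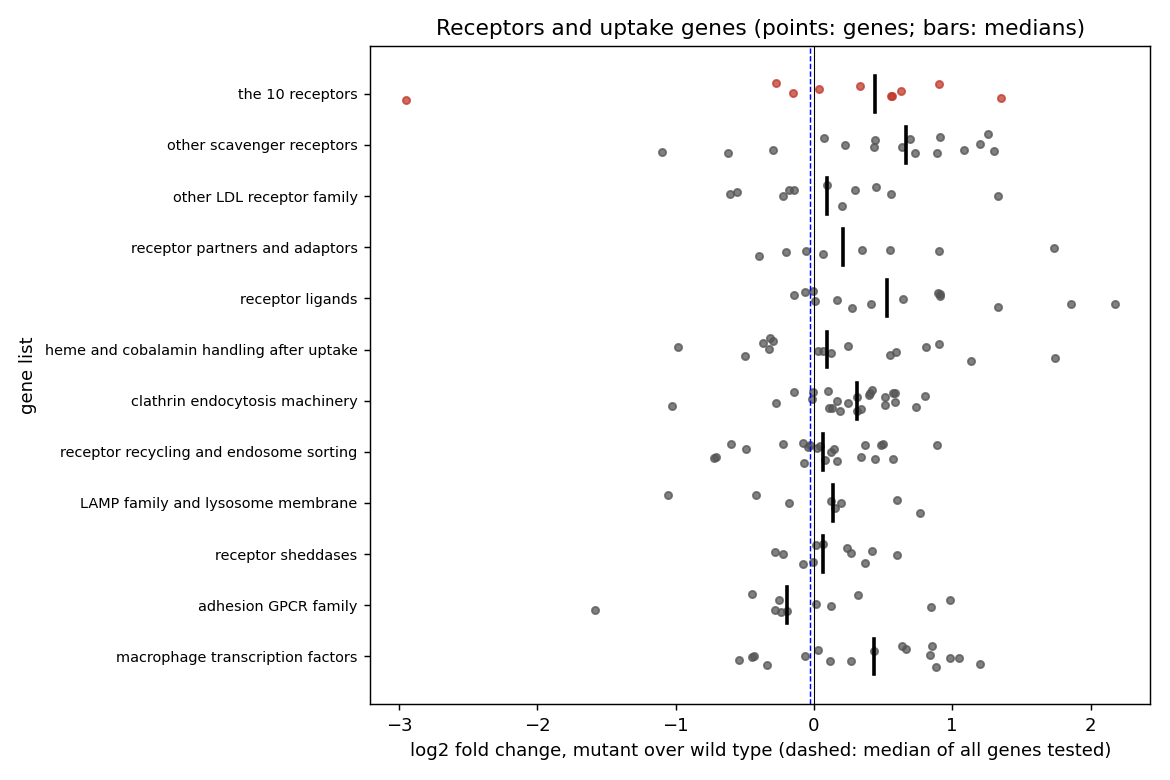
Log2 fold change, mutant over wild type (x axis), of the 10 receptors (top row, red) and of the genes of each uptake list (y axis, grey), with black bars at list medians and a dashed line at the median of all genes tested. Medians run between -0.20 for adhesion receptors and 0.67 for other scavenger receptors, and *Cubn* lies at -2.95.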

How the data were processed

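RNA-seq was measured in 3 osteoclast samples labelled Tet2Rank–/–; Tet3aRank+/– and 3 wild-type samples. Libraries were stranded mRNA, sequenced as single 75-base reads, per the labels' protocols. The build mm10 and the tools Bowtie2 2.2.3, SAMtools 0.1.19 and TopHat2 2.0.13 are named per the submitters' processing notes. How strand was set in counting is not given in the sources used here, and reads of overlapping opposite-strand genes cannot be told apart. The authors deposited raw counts per Ensembl gene (23264 rows; 60 repeats with identical counts were dropped). These counts, with TMM factors, were tested with edgeR 4.0.16 (R 4.3.3, quasi-likelihood, filterByExpr, genotype as the only term, Benjamini-Hochberg over 14040 genes), which was tested on simulated data. SE was derived from each log2 fold change and its F statistic. Levels per kb used exon unions of GENCODE M21. Motifs and CpGs were counted in 1 promoter per gene. DESeq2 1.42.0, other scalings, no filter, left-out libraries and the naming batch were tried. No 2 libraries were alike within counting error (lowest chi-square over degrees of freedom 27.7). Genes and lists were chosen with earlier results of these data known. Named were the receptors, *Tet2* and *Tet3*, up to 4 passing genes per list or else the 2 most abundant, and the 5 most like *Cubn*; others were named for their role, position or values. Results of some list genes are not reported here.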

Additional observations from a re-analysis of the deposited data

How the results depend on the processing

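Log2 fold changes of 8 of the 10 receptor genes kept their sign under all 13 alternatives; *Marco* changed sign under 3 and *Scarb1* under 2. That of *Cubn* lay between -3.84 and -2.36, that of *Stab1* between 1.11 and 1.91, and that of *Adgre1* between 0.64 and 1.62. Calls depended on the fit far more than values did, and the cause was not tested. Receptor genes called higher and lower were 0 and 0 in the fit reported, 2 and 1 in DESeq2, and 1 and 1 with the naming batch fitted; leaving out each library in turn gave 0 and 0 throughout. Over all genes, 7 were called higher and 3 lower. These counts were 42 and 46 without TMM factors, 46 and 35 with no filter, 662 and 764 in DESeq2, and 433 and 786 with the naming batch; leaving out a library gave 0 to 2 higher and 0 to 1 lower. For the pathway lists, 1 was called higher and 0 lower. These were 5 higher without TMM factors, 5 higher with no filter, 42 higher and 8 lower in DESeq2, and 29 higher and 5 lower with the naming batch; leaving out a library gave 0 higher and 0 lower. Other scalings moved the median over all genes by at most 0.033. For the naming batch, 0 receptor genes passed, 3 with no filter, and 0 to 1 when a library was left out (alternatives chosen after seeing the data). Per kb of the longest transcript, *Msr1* averaged 40.3, *Scarb1* 31.9 and *Stab1* 326 CPM, against 23.1, 11.6 and 253 with exon unions; *Msr1* then stood above *Lrp1* (34.8) and *Scarb1* above *Colec12* (13.1).

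No paired analysis was possible because the count columns carry no replicate number. The counts of *Cubn* in libraries 2 and 3 and of *Marco* in library 6 were 10, 14 and 6, which limits their precision.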
